A study of Mus musculus with 6 samples.

Results

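The genes described here are 10 genes of cytosolic fatty acid synthesis, Srebf1, Acly, Me1, Acaca, Thrsp, Fasn, Olah, Elovl6, Scd1 and Scd2. They were chosen by gene symbol, whose Ensembl IDs were read from the mouse annotation, and the rule used no measured value, although earlier results of these data were known when the genes and the lists below were chosen. They were 10 of 54495 annotated gene IDs, and all 10 passed the filter on low values that left 15065 genes for testing. RNAseq was carried out on 6 mammary tumors from NeuT/ATTAC mice, 3 from mice given IgG and 3 from mice given an anti-PD-1 monoclonal antibody (mAb). These mice combine MMTV-NeuT, an ErbB2 oncogene under the MMTV promoter of mammary epithelium, with FAT-ATTAC, a drug-inducible caspase driven by an adipocyte promoter that was brought from C57BL/6 into the FVB strain. All 6 mice were on AP20187, the drug that activates the caspase, ablates mammary fat and induces fibrosis, at 0.4 mg/kg from 6 weeks of age. Each antibody was given at 100 μg, 2 times per week from 8 weeks of age, for 4 months by the methods. The AP20187 schedule is triweekly in the methods and biweekly in the labels. No group lacked AP20187, so that its effect on these genes was not part of the comparison. A legend of the study speaks of RNA pooled from several tumors, while the files hold 3 separate profiles per group, so that p-values measure the spread between these profiles, which may in part be technical.

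Fatty acid synthesis turns citrate into long-chain fat in the cytosol. ATP-citrate lyase (Acly) cleaves citrate to acetyl-CoA, acetyl-CoA carboxylase (Acaca) makes malonyl-CoA, and fatty acid synthase (Fasn) joins these units into palmitate with NADPH from malic enzyme (Me1) and the pentose phosphate pathway. Elovl6 elongates palmitate to stearate, the stearoyl-CoA desaturases Scd1 and Scd2 put a double bond into it, and Olah, a thioesterase of lactating mammary gland, releases shorter chains from Fasn for milk fat. Srebf1 encodes SREBP1, the transcription factor that activates most of these genes, and Thrsp (Spot 14) is a nuclear protein that promotes lipogenesis in liver, fat and mammary gland. The pathway is known for its activity in mammary epithelium during lactation and in Erbb2-driven breast tumor cells.

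The DNA before the starts of Fasn, Srebf1 and Acly is shown because Srebf1 had the tumor pattern closest to that of Fasn among the 10 genes, whereas Acly differed least between the groups. Each window holds the 250 bases before a RefSeq transcript start, read 5′ to 3′ on the strand of the gene (minus for all 3) in GRCm38.p6, and overlaps no annotated exon. Fasn is at chr11:120824548-120824797, Acly is at chr11:100528001-100528250, and Srebf1 is before the most downstream of its 3 starts, inside the gene, at chr11:60210472-60210721. Capitals mark CCAAT boxes (CCAAT on either strand) and GC boxes (GGGCGG on either strand).
Fasn: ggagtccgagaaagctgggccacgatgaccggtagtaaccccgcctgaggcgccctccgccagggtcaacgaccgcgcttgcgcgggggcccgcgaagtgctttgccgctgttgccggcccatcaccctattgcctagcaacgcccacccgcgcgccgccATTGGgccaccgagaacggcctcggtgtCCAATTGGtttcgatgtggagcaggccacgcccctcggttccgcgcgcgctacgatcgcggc
Srebf1: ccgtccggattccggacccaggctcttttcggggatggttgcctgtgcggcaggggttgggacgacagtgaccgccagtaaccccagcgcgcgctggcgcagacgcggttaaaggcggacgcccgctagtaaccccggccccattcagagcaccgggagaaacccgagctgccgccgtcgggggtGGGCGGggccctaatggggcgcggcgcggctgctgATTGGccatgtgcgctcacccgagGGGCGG
Acly: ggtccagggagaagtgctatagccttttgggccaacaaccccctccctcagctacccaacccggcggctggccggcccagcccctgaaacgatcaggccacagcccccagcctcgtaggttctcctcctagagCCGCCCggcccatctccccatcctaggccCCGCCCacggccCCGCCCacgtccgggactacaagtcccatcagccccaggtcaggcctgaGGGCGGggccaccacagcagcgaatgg
The Fasn window held 3 CCAAT boxes, whose first bases lay 90, 62 and 59 bases before the start, the last 2 of them on opposite strands and overlapping. The Srebf1 window held a CCAAT box 30 bases and GC boxes 65 and 6 bases before the start. The Acly window held 4 GC boxes, 117, 88, 76 and 27 bases before the start. RefSeq windows were matched for 8 of the 10 genes, the exceptions being Scd1 and Scd2. Some genes had several starts, and the 8 genes had 11 windows. Some windows overlapped annotated exons, over 180 bases for Thrsp, at least 129 for Elovl6, 39 for 1 window of Me1 and 31 for Olah. Besides windows of Srebf1, the only windows of Acaca and Olah and 1 window of Me1 lie inside the gene. A CCAAT box was present in 5 of these 11 windows (of Fasn, Srebf1, Me1 and Thrsp), against 33.8% of all 32851 windows, and a GC box in 4 (of Acly, Srebf1 and Me1), against 32.7%. The E-box CACGTG, found in 6.02% of all windows, and the sterol regulatory element TCACNCCAC, found in 1.05%, were present in none of the 11 windows, each searched on both strands. These are matches of letters in short windows and not measured binding.

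Between the groups, 8 of the 10 genes were lower and 2 were higher in anti-PD-1 tumors, and none passed the adjusted threshold. Differences over 1.5-fold were those of Thrsp, Scd1, Srebf1 and Elovl6, which were 2.004, 1.93, 1.75 and 1.61 times lower, while Me1 was 1.48 times higher. Elovl6 and Me1 were the genes whose 3 anti-PD-1 tumors lay wholly on 1 side of the 3 IgG tumors. Levels are given as FPKM (fragments per kilobase of exon, scaled to library size) after scaling between tumors, and differences as anti-PD-1 minus IgG on the log2(FPKM + 1) scale. The median difference was -0.45 over the 10 genes and 0.0073 over all genes tested. In limma with Benjamini-Hochberg adjustment over 15065 genes, 0 of the 10 genes had an adjusted p under 0.05, as did 0 genes in all (0.00%). In the same fit 1848 genes (12.3%) had an unadjusted p under 0.05, and genes of the whole table with an adjusted p under 0.05 numbered 1 with voom on recovered reads, 12 without IgG replicate 1 and 1 without IgG replicate 3. An unadjusted p under 0.05 together with a difference of at least 1.5-fold was found for 1 gene in the lower direction (Elovl6), against 4.55% of all genes, and for 0 genes in the higher direction, against 3.90%. Groups that did not overlap were found for 1 gene in the lower direction, against 8.76%, and for 1 in the higher direction, against 9.31%. A count of 1 in 10 is close to these background shares. In bulk tumor RNA, fewer cells of a type and less RNA per cell cannot be told apart.

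**Figure D1:**
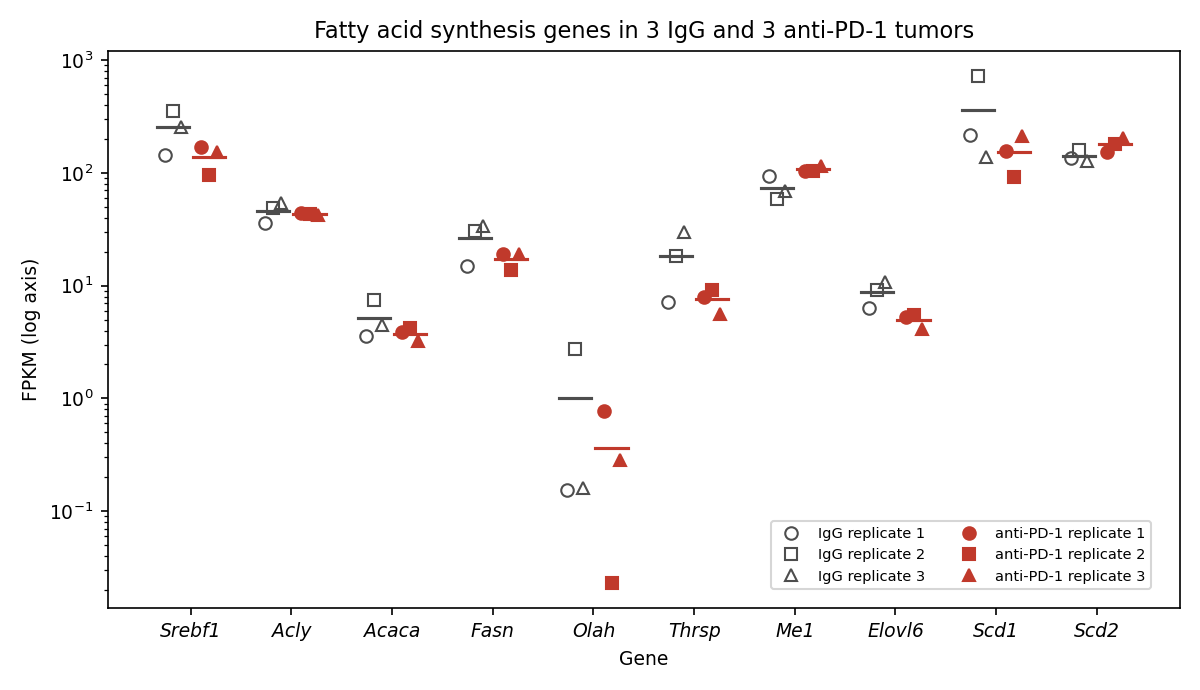
FPKM of the 10 genes on a log axis, with open grey symbols for the 3 IgG tumors, filled red symbols for the 3 anti-PD-1 tumors (circle, square and triangle for replicates 1, 2 and 3) and a short line at each group mean. Elovl6 in anti-PD-1 tumors lay at 4.12 to 5.46, below all IgG tumors, and Me1 at 104 to 115, above them, while IgG replicate 2 stood at 722 for Scd1.

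Srebf1 (ENSMUSG00000020538, chr11:60199089-60222581, minus strand) was one of the most abundant transcripts of the group. IgG replicates 1, 2 and 3 had 145, 357 and 257 FPKM, and anti-PD-1 replicates 1, 2 and 3 had 169, 96.2 and 152 FPKM. IgG replicates 2 and 3 stood above every anti-PD-1 tumor, whereas IgG replicate 1 lay below 2 of them. The means were 253 ± 106 (SD, n = 3) and 139 ± 38.0 (SD, n = 3), and the log2 difference was -0.81 ± 0.37 (SE), with a limma adjusted p of 0.428 and an exact permutation p of 0.3. With 3 tumors against 3 the smallest p that the two-sided exact permutation test can give is 0.1. Without IgG replicate 2 the difference was -0.51. The 3′ end of Rai1 overlaps Srebf1 on the opposite strand, and Rai1 had 8.63 to 13.2 FPKM in the 6 tumors. Whether the counting used strand is not given in the sources used here.

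The genes around SREBP1 did not share a direction. Of 15 genes of SREBP, LXR and ChREBP control, 14 were tested, 7 were higher and 7 lower, and their median difference was -0.03 (0.04 among genes with a mean FPKM of 2 or more, and -0.10 with no filter). None had an unadjusted p under 0.05. The smallest p was that of Nr1h2, the liver X receptor beta, at 34.9, 29.1 and 26.1 FPKM in IgG tumors and 38.8, 40.8 and 37.5 in anti-PD-1 tumors, a log2 difference of 0.38 ± 0.16 (limma adjusted p = 0.410). Mlxipl, which encodes ChREBP, had at most 0.737 FPKM.

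Acly (ENSMUSG00000020917, chr11:100476353-100528000, minus strand) differed least. Its FPKM was 36.2, 48.4 and 54.3 in IgG tumors and 43.8, 43.5 and 42.5 in anti-PD-1 tumors. The anti-PD-1 tumors lay close together and inside the range of the IgG tumors. The means were 46.3 ± 9.24 (SD, n = 3) and 43.3 ± 0.709 (SD, n = 3), with a log2 difference of -0.07 ± 0.18 (limma adjusted p = 0.890, exact permutation p = 0.7), which became 0.05 without IgG replicate 3. Of the 10 genes listed for citrate and acetyl-CoA supply, 5 were higher and 5 lower (median 0.01), and 2 had an unadjusted p under 0.05 with at least 1.5-fold, both higher, against 3.90% of all genes in that direction. These were Slc25a1, the mitochondrial citrate carrier, and Pcx, pyruvate carboxylase. Slc25a1 had 31.4, 21.9 and 27.7 FPKM in IgG tumors and 45.5, 45.8 and 37.1 in anti-PD-1 tumors, without overlap, and a log2 difference of 0.65 ± 0.19 (limma adjusted p = 0.344). Pcx had a log2 difference of 0.61 ± 0.17 with the same adjusted p.

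Me1 (ENSMUSG00000032418, chr9:86581371-86695953, minus strand) was higher in anti-PD-1 tumors. Its FPKM was 93.5, 58.1 and 69.6 in IgG tumors and 104, 105 and 115 in anti-PD-1 tumors. The groups did not overlap, and IgG replicate 1 was the IgG tumor closest to the anti-PD-1 tumors. The means were 73.7 ± 18.03 (SD, n = 3) and 108 ± 6.32 (SD, n = 3), and the log2 difference was 0.57 ± 0.21 (limma unadjusted p = 0.0270, adjusted p = 0.370, exact permutation p = 0.1). The unadjusted limma p was above 0.05 when any tumor other than IgG replicate 1 was left out (0.0531 to 0.0853) and with quantile normalization (0.0819). Genes of chromosome 9 as a whole went the other way. The median difference of its 798 tested genes was -0.36, and 82.3% of them were lower in anti-PD-1 tumors. The difference of Me1 exceeded that median by 0.93 and ranked 26 from the top of the 798. The medians for chromosomes 2, 3, 7, 11 and 19, which hold the other 9 genes, ran from -0.05 to 0.08.

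The other genes listed for NADPH supply were mostly higher as well, but not all of them make NADPH. Pgls, Tkt and Taldo1 are pentose phosphate enzymes that form none. Of the cytosolic enzymes that do, G6pdx and Idh1 were higher (log2 differences 0.41 and 0.11) and Pgd was lower (-0.39). Of 9 listed, 6 cytosolic and 3 mitochondrial (Me2, Me3 and Nnt), 7 were tested, 6 were higher and 1 lower, with a median of 0.41 (0.26 without anti-PD-1 replicate 3), and 1 (Tkt) had an unadjusted p under 0.05 with at least 1.5-fold, against 3.90% of all genes in the higher direction. Tkt, transketolase of the pentose phosphate pathway, had 44.6, 34.6 and 37.1 FPKM in IgG tumors and 56.9, 73.5 and 84.9 in anti-PD-1 tumors. These groups did not overlap, and the log2 difference was 0.86 ± 0.20 (limma adjusted p = 0.344). The summed FPKM of the 9 genes ran from 259 to 274 in IgG tumors and from 321 to 410 in anti-PD-1 tumors, without overlap between the groups and with an exact permutation p of 0.1. With the mitochondrial genes set aside after the values were seen, 5 of 6 were higher, their median was 0.39, and their sums ran from 255 to 269 and from 313 to 401.

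Acaca (ENSMUSG00000020532, chr11:84129672-84401651, plus strand) was at a low level. Its FPKM was 3.55, 7.43 and 4.51 in IgG tumors and 3.87, 4.18 and 3.23 in anti-PD-1 tumors. IgG replicate 2 stood alone at the top, and the other 5 tumors overlapped. The means were 5.16 ± 2.02 (SD, n = 3) and 3.76 ± 0.483 (SD, n = 3), with a log2 difference of -0.33 ± 0.25 (limma adjusted p = 0.617, exact permutation p = 0.4), and of -0.08 without IgG replicate 2. Acacb, the mitochondrial-membrane isoform that serves the control of oxidation, had 1.67 to 2.64 FPKM, and the log2 ratio of Acaca to Acacb was 0.93, 1.77 and 0.77 in the IgG group and 1.21, 0.98 and 0.72 in the other, with an exact permutation p of 0.8. Among 10 partners and kinases of acetyl-CoA carboxylase, 5 were higher and 5 lower with a median of -0.03. The smallest p was that of Prkag1, a subunit of AMP-activated protein kinase, at 8.998 to 10.2 FPKM in IgG tumors and 11.0 to 13.4 in anti-PD-1 tumors, a log2 difference of 0.37 ± 0.15 (limma adjusted p = 0.399).

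Thrsp (ENSMUSG00000035686, chr7:97412938-97417730, minus strand) had a log2 difference near that of Scd1 at the top of the 10 genes, and which of the pair was larger depended on the setting. Its FPKM was 7.13, 18.4 and 29.6 in IgG tumors and 7.98, 9.17 and 5.58 in anti-PD-1 tumors. IgG replicates 2 and 3 stood above all anti-PD-1 tumors, and IgG replicate 1 lay among them. The means were 18.4 ± 11.2 (SD, n = 3) and 7.58 ± 1.83 (SD, n = 3), with a log2 difference of -1.003 ± 0.46 (limma adjusted p = 0.429, exact permutation p = 0.3). The difference was -0.57 without IgG replicate 3.

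Fasn (ENSMUSG00000025153, chr11:120805846-120824547, minus strand) showed the same division of the IgG tumors. Its FPKM was 14.9, 30.8 and 33.8 in IgG tumors and 18.9, 13.7 and 19.1 in anti-PD-1 tumors. IgG replicates 2 and 3 were the highest, and IgG replicate 1 lay between anti-PD-1 replicates 2 and 1. The means were 26.5 ± 10.2 (SD, n = 3) and 17.2 ± 3.05 (SD, n = 3), with a log2 difference of -0.53 ± 0.32 (limma adjusted p = 0.523, exact permutation p = 0.3). The difference was -0.32 without IgG replicate 3. These values rested on 3591 to 9061 reads per tumor, so that counting error was small beside the spread between tumors.

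Olah (ENSMUSG00000026645, chr2:3341982-3397210, minus strand) was close to the limit of detection in most tumors. Its FPKM was 0.154, 2.73 and 0.162 in IgG tumors and 0.776, 0.0233 and 0.286 in anti-PD-1 tumors. These stand for 6, 116 and 7 reads in IgG tumors and 35, 1 and 12 reads in anti-PD-1 tumors. IgG replicate 2 stood alone, and Olah passed the filter on mean FPKM through that tumor. The log2 difference of -0.37 ± 0.49 (limma adjusted p = 0.792, exact permutation p = 0.7) was 0.20 without IgG replicate 2, -0.72 when 0.1 rather than 1 was added and -1.10 with voom on recovered reads. The log2 ratio of Fasn to Olah ran from 3.49 in IgG replicate 2 to 9.20 in anti-PD-1 replicate 2, the latter resting on 1 read of Olah, and did not separate the groups (exact permutation p = 0.8).

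Elovl6 (ENSMUSG00000041220, chr3:129532355-129638495, plus strand) was the synthesis gene with the smallest p. Its FPKM was 6.31, 9.13 and 10.8 in IgG tumors and 5.25, 5.46 and 4.12 in anti-PD-1 tumors. Every anti-PD-1 tumor was below every IgG tumor, the gap being narrowest to IgG replicate 1. The means were 8.73 ± 2.26 (SD, n = 3) and 4.94 ± 0.721 (SD, n = 3), with a log2 difference of -0.69 ± 0.22 (limma unadjusted p = 0.0149, adjusted p = 0.355, exact permutation p = 0.1). It ran from -0.88 to -0.54 when each tumor in turn was left out, and Elovl6 no longer met the unadjusted p and the fold together without anti-PD-1 replicate 3 (-0.59, unadjusted p = 0.0554 in limma) or without IgG replicate 3 (-0.54, under 1.5-fold).

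Scd1 (ENSMUSG00000037071, chr19:44394455-44407879, minus strand) varied most among the abundant genes. Its FPKM was 215, 722 and 139 in IgG tumors and 155, 91.0 and 211 in anti-PD-1 tumors. IgG replicate 2 was far above the rest, and the other 5 tumors overlapped. The means were 359 ± 317 (SD, n = 3) and 152 ± 60.0 (SD, n = 3), with a log2 difference of -0.95 ± 0.61 (limma adjusted p = 0.553, exact permutation p = 0.4), which was -0.26 without IgG replicate 2.

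Scd2 (ENSMUSG00000025203, chr19:44293674-44306864, plus strand), its neighbor on chromosome 19, was steadier and went the other way. Its FPKM was 134, 160 and 129 in IgG tumors and 154, 180 and 202 in anti-PD-1 tumors. The groups overlapped, IgG replicate 2 lying above anti-PD-1 replicate 1. The means were 141 ± 16.7 (SD, n = 3) and 179 ± 23.8 (SD, n = 3), with a log2 difference of 0.34 ± 0.18 (limma adjusted p = 0.485, exact permutation p = 0.2). The ratio of Scd1 to Scd2 was 1.61, 4.51 and 1.08 in IgG tumors and 1.01, 0.507 and 1.04 in anti-PD-1 tumors. All 3 anti-PD-1 tumors had a lower ratio than any IgG tumor, although IgG replicate 3 and anti-PD-1 replicate 3 nearly met. The log2 ratio was lower by 1.29 on average, with an exact permutation p of 0.1 and an adjusted p of 0.3 over the 3 ratios computed, and by 0.70 without IgG replicate 2, the tumor with the highest ratio (exact permutation p = 0.3). Scd1 and Scd2 are close paralogs, and neither fell on whole reads in all tumors, unlike the other 8 genes, so that the division of reads between them is uncertain. The other desaturases of the cluster were low, with 0.396 to 2.43 FPKM for Scd3 and at most 0.130 for Scd4.

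**Figure D2:**
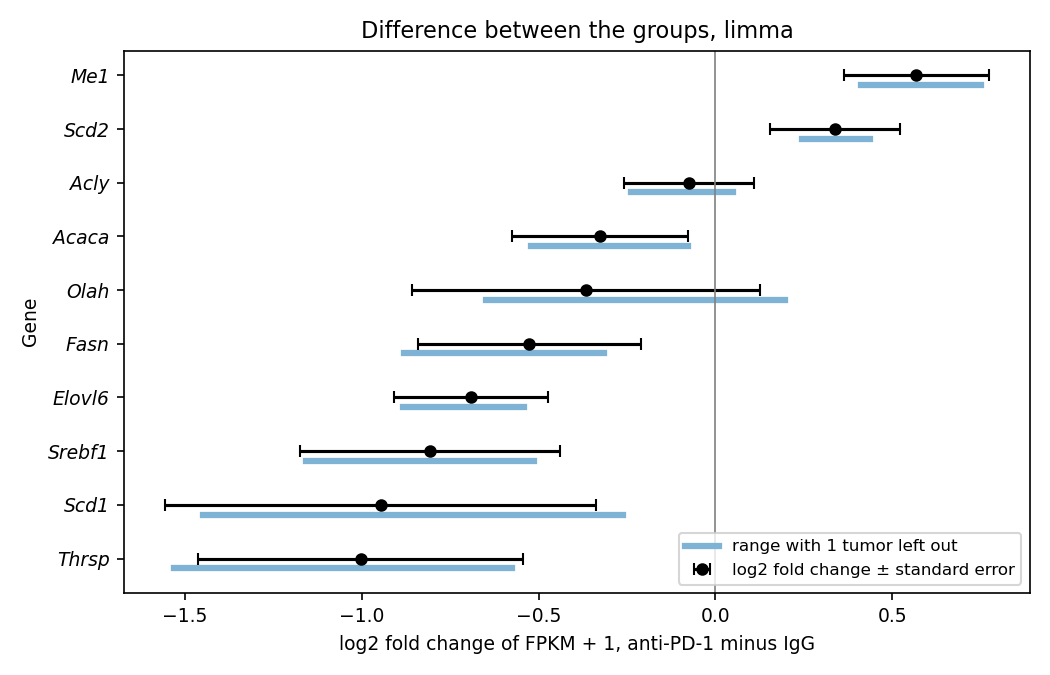
Log2 difference of each gene, anti-PD-1 minus IgG, on the log2(FPKM + 1) scale, with points and bars for the limma estimate ± SE and blue bars for the range over 6 fits that each left out 1 tumor. The blue bars of Acly and Olah cross 0, and that of Scd1 reaches from -1.45 to -0.26.

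The other genes of elongation and desaturation were lower more often than higher, to an extent that depended on IgG replicate 2. Of 17 listed, 13 were tested, 4 were higher and 9 lower, with a median of -0.33. The median was -0.06 without IgG replicate 2, -0.17 without IgG replicate 3, -0.16 when anti-PD-1 replicate 1 was left out, and -0.52 with voom on recovered reads. An unadjusted p under 0.05 with at least 1.5-fold was found for 3 of the 13 in the lower direction, against 4.55% of all genes, and for 1 in the higher direction, against 3.90%. Fads1 and Fads2, the delta-5 and delta-6 desaturases of polyunsaturated fatty acids, were the lower ones on chromosome 19. Fads1 had 7.56, 22.4 and 8.34 FPKM in IgG tumors and 6.98, 3.96 and 3.72 in anti-PD-1 tumors, a log2 difference of -1.11 ± 0.41 (limma adjusted p = 0.376). Fads2 had 31.8, 65.4 and 32.1 FPKM in IgG tumors and 24.9, 17.0 and 21.1 in anti-PD-1 tumors, a difference of -0.93 ± 0.30 (adjusted p = 0.355). Neither overlapped between the groups, and IgG replicate 2 was again the highest tumor for both. Without that tumor the differences were -0.65 and -0.60. Hacd4, a dehydratase of the elongation cycle, had 3.002 to 4.20 FPKM in IgG tumors and 1.28 to 1.45 in anti-PD-1 tumors, a difference of -0.96 ± 0.18 (adjusted p = 0.344). Tecr, the reductase that ends the elongation cycle, was higher, with 76.5 to 120 FPKM in IgG tumors and 157 to 207 in anti-PD-1 tumors and a difference of 0.93 ± 0.22 (adjusted p = 0.344). The summed FPKM of the 17 genes, Tecr among them, did not follow the median. It ran from 307 to 404 in IgG tumors and from 372 to 431 in anti-PD-1 tumors, with overlap and an exact permutation p of 0.2.

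Genes that take fatty acids on to glycerolipids, secrete them or oxidize them were mixed. Of 21 acyl-CoA synthetase and glycerolipid genes, 16 were tested, 11 were higher and 5 lower, with a median of 0.40 (0.23 without anti-PD-1 replicate 3 and 0.16 with no filter on low FPKM), and none passed both the unadjusted p and the fold. Their summed FPKM nonetheless ran lower, from 358 to 418 in anti-PD-1 tumors against 424 to 472 in IgG tumors. Acsl4, a long-chain acyl-CoA synthetase, made up most of that sum, and with it set aside after its values were seen the sums of the other 20 genes were higher, from 166 to 194 in anti-PD-1 tumors against 135 to 154 in IgG tumors. The smallest p was that of Dgat1, which makes triglyceride, at 8.93 to 10.5 FPKM in IgG tumors and 12.9 to 17.2 in anti-PD-1 tumors, a log2 difference of 0.49 ± 0.17 (limma adjusted p = 0.365). Of 12 genes of uptake, binding and milk lipid secretion, 8 were higher and 4 lower (median 0.20), and 1 higher and 2 lower ones passed the unadjusted p and the fold, against 3.90% and 4.55% of all genes.

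Btn1a1, butyrophilin of the milk fat globule, had 20.5, 111 and 23.5 FPKM in IgG tumors and 17.2, 4.20 and 9.57 in anti-PD-1 tumors, a log2 difference of -1.96 ± 0.70 (limma adjusted p = 0.370) that was -1.20 without IgG replicate 2. Plin2, a coat protein of lipid droplets, had 108, 175 and 81.1 FPKM in IgG tumors and 52.2, 64.3 and 60.1 in anti-PD-1 tumors, a difference of -0.96 ± 0.28 (adjusted p = 0.345). Both were highest in IgG replicate 2, as were Fads1, Fads2 and Scd1. Fabp5, a fatty acid binding protein, had 30.1, 11.2 and 10.6 FPKM in IgG tumors and 30.9, 83.7 and 36.3 in anti-PD-1 tumors, with IgG replicate 1 again beside the anti-PD-1 tumors and a difference of 1.51 ± 0.49 (adjusted p = 0.355).

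Of 22 oxidation genes, 20 were tested, 12 were higher and 8 lower (median 0.06), and 1 passed the unadjusted p and the fold in each direction, near the 3.90% and 4.55% of all genes. Acadl, long-chain acyl-CoA dehydrogenase, was higher, at 48.4 to 90.8 FPKM in IgG tumors and 120 to 170 in anti-PD-1 tumors, a log2 difference of 1.08 ± 0.27 (limma adjusted p = 0.344). Decr1, a reductase for unsaturated chains, was lower, at 7.05 to 12.4 and 3.91 to 5.68 FPKM, a difference of -0.80 ± 0.23 (adjusted p = 0.344). The summed FPKM of the oxidation genes was higher without overlap, from 427 to 526 in anti-PD-1 tumors against 389 to 412 in IgG tumors, but with Acadl set aside after its values were seen the groups overlapped, at 307 to 356 and 318 to 341. Of 10 genes of mitochondrial fatty acid and lipoate synthesis, 9 were tested, 4 were higher and 5 lower (median -0.03), and Lipt2, the lipoyl transferase, was higher at 2.73 to 5.21 and 8.69 to 11.1 FPKM, a difference of 1.09 ± 0.23 (adjusted p = 0.344). The sum of these 10 genes was also higher without overlap, from 58.3 to 62.3 FPKM in anti-PD-1 tumors against 49.6 to 53.8 in IgG tumors, and likewise overlapped with Lipt2 set aside, at 48.5 to 51.6 and 44.9 to 51.03. Hacd4, Plin2 and Decr1 lie on chromosome 4, the median difference of whose tested genes was -0.40. What the chromosome contributed to their values was not tested. Over the 9 lists, 111 genes were tested, of which 7 (6.31%) passed the unadjusted p and the fold in the higher direction, against 3.90% of all genes, and 6 (5.41%) in the lower, against 4.55%. Of the 111, 21 (18.9%) were higher without overlap, against 9.31% of all genes, 8 (7.21%) were lower without overlap, against 8.76%, and 22 (19.8%) had an unadjusted p under 0.05, against 12.3%. No test was made of these shares.

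**Figure D3:**
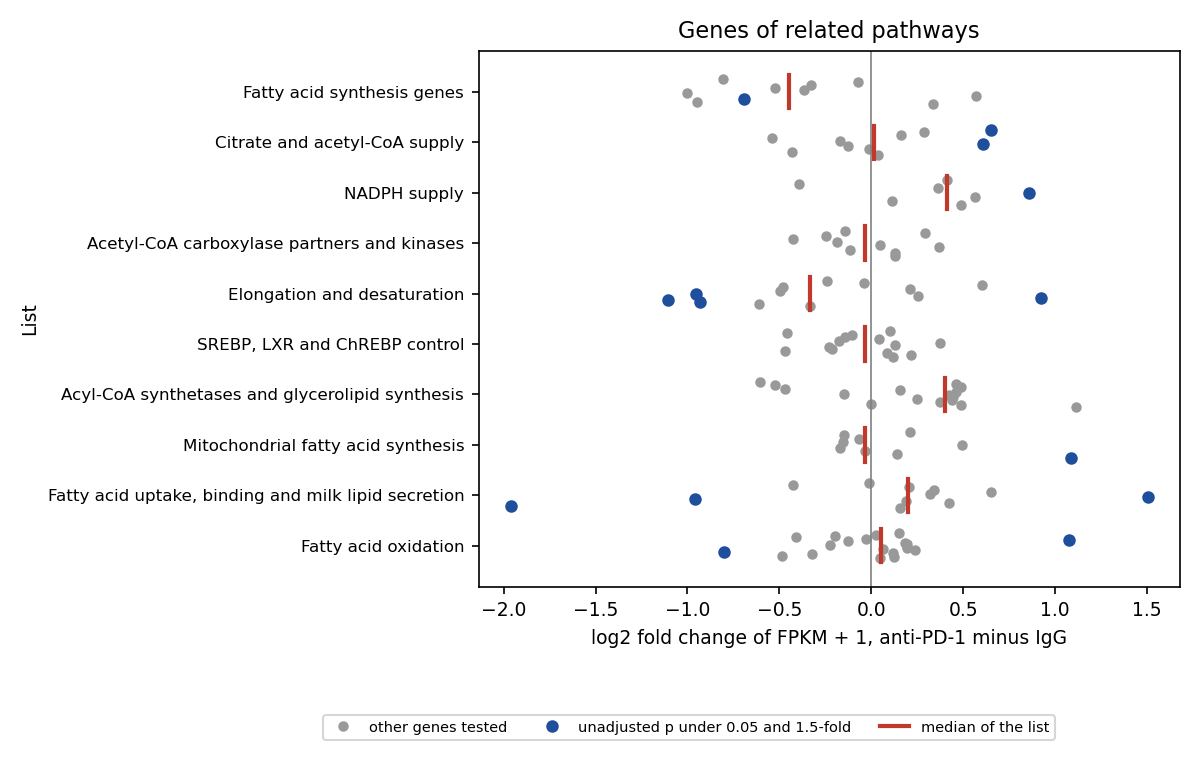
Log2 difference, anti-PD-1 minus IgG on the log2(FPKM + 1) scale, of each tested gene in the 10 synthesis genes and 9 related lists, with blue points for an unadjusted p under 0.05 and at least 1.5-fold and a red line at each list's median. The synthesis genes and the elongation and desaturation genes have medians of -0.45 and -0.33, and the NADPH and glycerolipid genes of 0.41 and 0.40, all of which moved with the tumors included (the elongation and desaturation median was -0.06 without IgG replicate 2).

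By tumor, the 10 genes divided the IgG group. The median deviation from each gene's mean over the 6 tumors was -0.26 in IgG replicate 1, 0.61 in IgG replicate 2 and 0.17 in IgG replicate 3, and -0.10, -0.22 and -0.17 in the anti-PD-1 replicates in the same order, all in log2 units. IgG replicate 2 was the highest tumor for Scd1, Acaca, Srebf1 and Olah, and IgG replicate 3 for Fasn, Acly, Elovl6 and Thrsp. Anti-PD-1 replicate 3 was the highest for Scd2 and Me1. IgG replicate 1 thus lay among or beside the anti-PD-1 tumors for most of the 10 genes, and the median over the genes moved from -0.45 to -0.77 when it was left out. In that fit, 4 lower genes (Thrsp, Srebf1, Elovl6 and Fasn) had an unadjusted p under 0.05 with at least 1.5-fold, against 8.18% of all genes, as did 1 higher gene (Me1), against 6.66%. In the same fit 6 genes were lower without overlap, against 17.7% of all genes. The lowest limma adjusted p among the 10 genes was then 0.103, for Thrsp. IgG replicate 1 is set apart here because of its values for these same genes, so that leaving it out widens their differences. These counts restate where that tumor lay, and the shares over all genes are not a like background for them. Without IgG replicate 2 the median was -0.17. In all 6 tumors Scd1, Scd2, Srebf1 and Me1 took the first 4 places in varying order, followed by Acly, Fasn, Thrsp, Elovl6, Acaca and Olah. Over the 6 tumors the range of Acly lay apart from those of Me1 and Fasn, and Olah lay apart from Acaca, whereas the ranges of Fasn and Thrsp, of Thrsp and Elovl6, and of Elovl6 and Acaca overlapped.

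**Figure D4:**
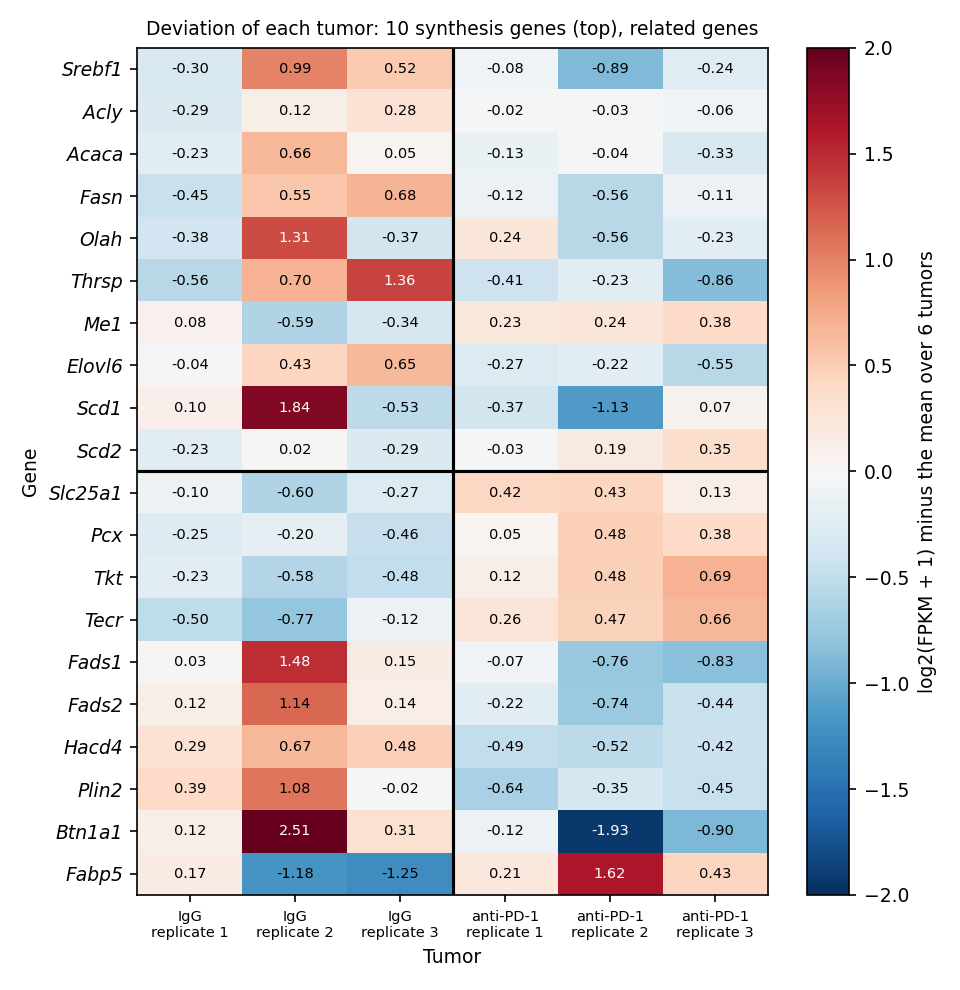
Deviation of each tumor from the gene's mean over 6 tumors, in log2(FPKM + 1) units printed in each cell, for the 10 synthesis genes above the line and 10 genes of related lists below it, with colors held at the ends of the scale beyond ±2. IgG replicate 2 is the highest tumor for Srebf1, Acaca, Olah, Scd1, Fads1, Fads2, Hacd4, Plin2 and Btn1a1, and IgG replicate 1 sits near the anti-PD-1 tumors for Fasn, Thrsp and Srebf1.

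The genes whose tumor pattern was most like that of Fasn were ranked by the root-mean-square gap over the 6 tumors, each gene centered on its own mean, among the 11078 genes whose mean FPKM reached 2. The closest were Ppp1r8, Atmin, Pgm3, Mfn2, Grik5, Zyg11b, Mtss1l and Trim2, with gaps of 0.113 to 0.126 log2 units. Of these 8 genes, 3 lie on chromosome 4, which holds 6.15% of the genes ranked, 2 on chromosome 8, which holds 5.47%, and 1 on chromosome 9, which holds 5.17%. The median difference of all tested genes was -0.40 on chromosome 4, -0.02 on chromosome 8 and -0.36 on chromosome 9. What the chromosomes contributed to the likeness was not tested. The 8 genes were taken with the other synthesis genes set aside. Among the latter, Srebf1 had a gap of 0.247 and ranked 340, Elovl6 0.293 and 653, Acly 0.333 and 1090, and Acaca 0.361 and 1426. Thrsp ranked 3151, Scd2 6729, Me1 9671 and Scd1 9834, so that by this gap the desaturases and Me1 were farther from Fasn than most genes. The gap counts the size of the swings between tumors as well as their shape. The highest tumor had 5.31 times the FPKM of the lowest for Thrsp, against 2.47 times for Fasn. A larger gap such as that of Thrsp therefore does not by itself mean another shape.

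Markers of the cells a tumor can hold were read beside these values. White adipocyte markers were low in every tumor, as only 4 of 13 passed the filter. Adipoq had 0.0299 to 1.18 FPKM, Plin1 at most 0.269, and Fabp4 1.35 to 5.66. The summed FPKM of the list was 9.95 to 14.7 in IgG tumors and 7.18 to 13.4 in anti-PD-1 tumors. Ucp1 of brown fat was listed at 0 in 5 tumors, and the 7 brown adipocyte genes summed to 16.8 to 23.5 and 17.9 to 26.9 FPKM. Awat2 of sebaceous glands had 0.416 to 1.35 FPKM, and the 9 sebaceous and epidermal genes summed to 3.82 to 8.21 and 3.56 to 6.44. By median deviation the latter list was highest in IgG replicates 2 and 3 (0.40 and 0.06), as were the synthesis genes (0.61 and 0.17). By sum it was also highest there, at 8.21 and 7.57 FPKM. The synthesis genes, however, summed to more in anti-PD-1 replicate 3 (755 FPKM) than in IgG replicate 3 (727). All 5 tested sebaceous and epidermal genes were lower in anti-PD-1 tumors (median -0.19, and -0.46 with 0.1 added or -0.56 with voom). None had an unadjusted p under 0.05, and the part of this list in the values of the synthesis genes was not tested.

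Milk and alveolar genes varied widely and moved with IgG replicate 2. All 8 were lower in anti-PD-1 tumors (median -0.59), none with an unadjusted p under 0.05, but the median was 0.08 without IgG replicate 2 and -1.30 without IgG replicate 3. Their sums ran from 2967 to 7743 FPKM in IgG tumors and from 1862 to 3933 in anti-PD-1 tumors. Csn2, beta-casein, had 43.7, 377 and 20.2 FPKM in IgG tumors and 137, 18.6 and 5.09 in anti-PD-1 tumors. Wap, whey acidic protein, had 1.44, 16.9 and 0.608 FPKM in IgG tumors and 10.6, 0.327 and 0.334 in anti-PD-1 tumors. Both peaked in IgG replicate 2, the tumor with the most Scd1, Olah and Btn1a1. Lalba, alpha-lactalbumin, had 176, 863 and 1234 FPKM in IgG tumors and 77.5, 30.2 and 578 in anti-PD-1 tumors, highest in IgG replicate 3. What alveolar cells contributed to the values of the synthesis genes was not tested.

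The summed FPKM of the mammary epithelial markers was higher in anti-PD-1 tumors, although no single marker passed in that direction. The sum ran from 2220 to 3051 FPKM in IgG tumors and from 3132 to 4043 in anti-PD-1 tumors, without overlap, and 6 of 8 genes had a positive difference (median 0.37), none with an unadjusted p under 0.05. Epcam had 688 to 884 and 992 to 1150 FPKM, and Erbb2 20.3 to 23.1 and 25.2 to 31.5. The 1 marker of the 8 past the unadjusted p and the fold was Krt19, against 4.55% of all genes in the lower direction. Krt19 was lower by 2.03 on the log2 scale and peaked in IgG replicate 2 at 77.8 FPKM, and is named after its values were seen. Fibroblast markers summed to 79.5 to 242 FPKM in IgG tumors and 93.6 to 349 in anti-PD-1 tumors, macrophage markers to 343 to 771 and 515 to 753, endothelial markers to 14.0 to 20.3 and 9.38 to 17.2, T cell markers to 1.55 to 4.400 and 0.736 to 1.75, and skeletal muscle markers to 6.28 to 119 and 8.91 to 122. All 7 macrophage markers were higher (median 0.31), the smallest difference being 0.0054. Of these, 1 (Cd68) passed the unadjusted p and the fold, against 3.90% of all genes in the higher direction. Cd68 had 13.8 to 18.2 FPKM in IgG tumors and 22.2 to 30.7 in anti-PD-1 tumors, and is named after its values were seen. All 5 endothelial markers were lower (median -0.21) and all 5 skeletal muscle markers higher (median 0.81), none with an unadjusted p under 0.05. With 1 tumor left out, the endothelial median ran from -0.32 to -0.13. The muscle median was -0.0038 without anti-PD-1 replicate 2 and 2.0004 without IgG replicate 2. Of the fibroblast markers, 4 were higher and 3 lower. The part of these cells in the differences was not tested.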

How the data were processed

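Tumor RNA was sequenced and, per the methods of the study and its processing notes, trimmed with Cutadapt 3.5 and aligned and counted with RSEM 1.3.1 on an Ensembl mm10 reference (release 99) indexed with Bowtie2 2.4.1, the authors' test being DESeq2 1.36.0. The authors deposited 1 FPKM value per gene and tumor for 54532 gene IDs, and how these were derived from the counts is not given in the sources used here. IDs were matched to GENCODE M21 (GRCm38), leaving 37 unmatched. FPKM multiplied by exon length fell within 0.1 of a whole number of reads for 97.0% to 97.3% of values, giving 22813000 to 25928098 reads per tumor. Among the 10 genes, Olah alone had tumors with under 100 reads.

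Values were divided by median-of-ratios factors (0.996 to 1.00), and log2(FPKM + 1) was computed. The 15065 genes whose mean FPKM reached 0.5 entered limma (version 3.58.1 under R 4.3.3; lmFit and eBayes with an intensity trend), two-sided, with Benjamini-Hochberg adjustment, and single values with exact permutation tests. Fold changes on this scale understate those of low genes. Annotation and windows were handled in Python 3.11.15 with pandas 2.3.3 and numpy 2.4.6, and figures in matplotlib 3.10.9. The test was run on simulated reads for 15065 genes. Of 200 genes changed by a log2 fold of 2, 199 were recovered, with 15 false calls. That fold was larger than any difference of the synthesis genes, the largest being that of Thrsp (-1.003, anti-PD-1 minus IgG). Recovery of differences of this smaller size was not tested, so the simulation does not show how often they would be missed.

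The 10 genes, the 9 pathway lists and the 10 marker lists were chosen with earlier results of these data known. Named were the 10 genes; in each pathway list up to 4 genes with an unadjusted p under 0.05 and at least 1.5-fold, or else the gene with the smallest p; defining markers; the 8 genes most like Fasn; and overlapping or paralogous genes. Promoter windows came from RefSeq (GRCm38.p6). The alternatives were another amount added to the FPKM, other filters, no scaling, quantile normalization, no trend, a replicate block, voom on recovered reads, and leaving out each tumor.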

Additional observations from a re-analysis of the deposited data

How the results depend on the processing

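Over 14 alternatives, 137 of 139 values of the 10 genes kept their direction, and no value of these genes reached an adjusted p under 0.05. The exceptions came with 1 tumor left out, where Olah ran from -0.65 to 0.197 (the latter without IgG replicate 2) and Acly from -0.24 to 0.0486 (without IgG replicate 3). Olah had no value with a mean FPKM of at least 2. Lower genes with an unadjusted p under 0.05 and at least 1.5-fold numbered 2 with quantile normalization (681 of all 15065 genes) and 2 with voom on recovered reads (871 of all). When 1 tumor was left out they numbered 0 to 4, with 0 without anti-PD-1 replicate 3 (465 of all) and 4 without IgG replicate 1 (1233 of all). Higher ones numbered 0 to 1, the 1 being without IgG replicate 1 (1003 of all). Lower genes without overlap numbered 1 to 6 and higher ones 1 to 2 when 1 tumor was left out. The 6 were found without IgG replicate 1, against 17.7% of all genes, and the shares for the other fits were not computed. The median was -0.77 without IgG replicate 1 and at most -0.17, when IgG replicate 2 was left out. Me1 exceeded the chromosome 9 median by 0.70 to 1.26. The Scd1 to Scd2 log2 ratio difference, -1.29, ran from -1.73 to -0.70. The Acaca to Acacb log2 ratio difference, -0.19, ran from -0.38 to 0.12, the latter without IgG replicate 2. That of Fasn to Olah, 0.69, was -0.16 with 1 added to the FPKM, -0.53 when IgG replicate 2 was left out and -0.60 when anti-PD-1 replicate 2 was, and at most 1.70 without anti-PD-1 replicate 1. With 1 tumor left out, the list medians near 0 changed sign, from -0.09 to 0.06 for citrate supply, -0.09 to 0.0071 for carboxylase partners, -0.08 to 9.2e-05 for SREBP control, -0.07 to 0.09 for mitochondrial synthesis and -0.03 to 0.07 for oxidation, while that of uptake and secretion ran from 0.10 to 0.24 and that of the sebaceous and epidermal markers from -0.32 to -0.08, of the macrophage markers from 0.12 to 0.58 and of the skeletal muscle markers from -0.0038 to 2.0004. With Tkt set aside after its values were seen, the NADPH sums still did not overlap, at 224 to 230 FPKM in IgG tumors and 264 to 325 in anti-PD-1 tumors. Taldo1, which forms no NADPH, was a large part of these sums, at 95.1 to 109 FPKM in IgG tumors and 130 to 176 in anti-PD-1 tumors. The cause of these changes was not tested.

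Equal replicate numbers did not pair the tumors, since their deviations correlated at -0.16, 0.005 and 0.19 for replicates 1, 2 and 3, and not every tumor correlated best with its own number. With the replicate block, the 10 genes had a median of -0.45. By the unadjusted p and the fold, 1 lower gene and 0 higher genes were called, against 673 lower and 663 higher of all 15065 genes. By the unadjusted p alone, 1725 of all genes were under 0.05 with the block and 1848 without it.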
